A study of Homo sapiens with 18 samples.

Results

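The genes described here are the long intergenic and antisense noncoding RNA genes of a table of normalized counts from SJSA-1 cells, a human osteosarcoma line known for amplified MDM2 and wild-type p53. They were taken by name: every symbol that starts with LINC and a digit or ends in -AS and a digit. This gave 155 of the 3074 listed genes (5.04%), 44 with LINC names and 111 with antisense names. Poly(A)-enriched RNA was measured in 18 libraries, 3 for each of 6 groups. All cells were the same line and first spent 48 h in DMSO or in 1 µg/mL neocarzinostatin (NCS), an agent that breaks DNA. For the last 24 h of 72 h in all, cells also received DMSO, MI-1061 at 1 µM or MD-224 at 1 µM. The groups are called DMSO, MI-1061, MD-224, NCS, NCS with MI-1061 and NCS with MD-224, and the first 3 held no NCS. MI-1061 blocks the p53-binding pocket of MDM2, the ubiquitin ligase that holds p53 low, and MD-224 joins an MDM2-binding inhibitor to a cereblon ligand so that MDM2 is degraded. The design asks how RNA levels respond to DNA breakage, to MDM2 inhibition, to MDM2 degradation and to their combinations. The labels do not say that the 3 libraries of a group came from separate cultures. P-values thus measure the spread between libraries within groups, pooled over the 6 groups, which may be technical, and the study used 1 cell line.

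The table is a selection of genes: each listed gene had a mean under NCS and MI-1061 of 1.75 times its DMSO mean or more. Among the noncoding RNA genes this ratio ran from 1.79 to 78.9 with a median of 3.22 (3 over all listed genes), and those nearest the lower end were PPP3CB-AS1, LINC00667 and LINC00152. In 149 of the 155, all libraries of NCS with MI-1061 lay above all of DMSO, as in 98.5% of the whole table. Comparisons that use the DMSO or the NCS with MI-1061 libraries therefore lean on how the table was made. Neither group enters MD-224 after NCS against NCS, MD-224 against MI-1061, or NCS with MD-224 against MD-224.

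Long noncoding RNAs are transcripts without a long open reading frame. Some act as binding platforms for proteins or pair with other RNAs, and for others the act of transcription next to a coding gene is what matters. An antisense gene is transcribed from the strand opposite a coding gene, often from a start shared with it, so its level is commonly read beside that of its neighbour. In p53 biology several such RNAs are known as direct targets or as effectors of the DNA damage response. NORAD, listed here as LINC00657, is a cytoplasmic RNA induced by DNA damage that binds Pumilio proteins through many copies of a short motif.

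Part of NORAD is shown because that gene carries more counts than all the other noncoding RNA genes together. The Pumilio-type motif TGTANATA was searched in the RNA strand of the longest GENCODE 29 transcript of 153 genes. LINC00657 held 15 matches in 5339 bases, no other gene held more than 2, and 19 of the 153 held any. A stretch from base 1129 to base 1248 of the LINC00657 transcript holds 2 of the matches, printed in capitals.
LINC00657: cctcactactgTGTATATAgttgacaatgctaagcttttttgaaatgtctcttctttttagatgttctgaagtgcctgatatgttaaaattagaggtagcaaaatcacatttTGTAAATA

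Promoters are shown for 4 genes whose levels follow. UNC5B-AS1 was among the genes with the largest differences in most comparisons, LINC00704 rose where NCS and MI-1061 were combined, and LBX2-AS1 and LINC00667 held the only paired p53 sites found. Sequences run from 250 bases before to 50 after the RefSeq start (GRCh38.p14). Capitals mark the exact p53 decamer of LINC00704 and both parts of the pairs in LBX2-AS1 and LINC00667. Each of these pairs holds 2 mismatches to the decamer, and LINC00667 holds no exact decamer. In order they lie at chr10:71218179-71218478 on the minus strand, chr10:4678021-4678320 on the minus strand, chr2:74502343-74502642 on the plus strand and chr18:5237850-5238149 on the plus strand.
UNC5B-AS1: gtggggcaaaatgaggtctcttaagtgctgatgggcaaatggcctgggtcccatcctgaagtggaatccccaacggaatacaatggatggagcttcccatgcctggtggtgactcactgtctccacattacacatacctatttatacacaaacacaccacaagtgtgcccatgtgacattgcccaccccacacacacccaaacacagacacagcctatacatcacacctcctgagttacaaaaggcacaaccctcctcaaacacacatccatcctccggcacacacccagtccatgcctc
LINC00704: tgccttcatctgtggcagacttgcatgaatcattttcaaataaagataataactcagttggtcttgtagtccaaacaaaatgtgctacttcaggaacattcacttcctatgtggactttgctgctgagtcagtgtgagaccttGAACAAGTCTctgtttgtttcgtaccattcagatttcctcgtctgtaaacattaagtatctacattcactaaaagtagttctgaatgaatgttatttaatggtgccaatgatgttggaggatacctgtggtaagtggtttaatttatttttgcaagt
LBX2-AS1: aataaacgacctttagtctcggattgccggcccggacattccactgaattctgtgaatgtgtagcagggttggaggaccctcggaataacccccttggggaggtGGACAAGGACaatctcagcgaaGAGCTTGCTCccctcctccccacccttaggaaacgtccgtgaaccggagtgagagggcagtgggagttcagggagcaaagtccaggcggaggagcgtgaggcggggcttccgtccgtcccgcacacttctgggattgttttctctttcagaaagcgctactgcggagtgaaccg
LINC00667: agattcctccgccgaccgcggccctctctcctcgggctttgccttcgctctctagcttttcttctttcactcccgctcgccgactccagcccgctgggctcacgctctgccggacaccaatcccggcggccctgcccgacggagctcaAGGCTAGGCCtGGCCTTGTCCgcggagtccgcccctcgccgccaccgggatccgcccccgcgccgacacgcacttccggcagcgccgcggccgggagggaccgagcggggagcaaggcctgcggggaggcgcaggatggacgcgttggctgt

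Of the 155 genes, 118 had a promoter in the RefSeq table. An exact p53 decamer, searched on both strands, occurred in 11 of them (9.32%), in 6.54% of all 27305 promoters of the same length and in 6.95% of the 2115 listed genes that matched. A pair of decamers with at most 2 mismatches, intact core bases and a spacer of at most 13 bases occurred in 2 (1.69%), against 1.47% of all promoters. The LINC00704 window held 1 exact decamer and the UNC5B-AS1 window held none. LBX2-AS1 had 27.4, 51.9 and 51.2 with DMSO and 90.03, 190.7 and 113.7 with MI-1061, groups that did not overlap (1.56 ± 0.37, limma adjusted p = 0.00119, and 0.58 with adjusted p = 0.182 when libraries were rescaled by TMM on the listed genes). LINC00667 had 806.5, 696.8 and 848.1 with DMSO and 1232, 1114 and 1113 with MI-1061 (0.56 ± 0.13, adjusted p = 0.000972), which turned to -0.43 (adjusted p = 0.0133) under TMM. Here and below, TMM used only the listed genes, which were selected for a rise, so it takes out any rise that most of them share. A value under TMM is thus a change relative to the listed genes. A call lost or turned there does not show that the level itself was unchanged.

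Annotation placed the genes close to coding genes. RefSeq names matched 120 by symbol and 35 by an older symbol, and GENCODE 29 held 153. By GENCODE type 84 were antisense, 47 lincRNA and 10 processed transcripts, while 4 were annotated as protein-coding, among them MMP24-AS1 (now MMP24OS). A protein-coding gene lay across 93 of the 153 on the opposite strand, and 93 shared exon bases with another gene, 5 of them over at least 50% of their exon length. In 62 the transcription start lay within 1000 bases of the nearest protein-coding start on the opposite strand, and 11 of those neighbours (17.7%) were listed, against 13.5% of all protein-coding names. Whether counting used the strand is not given in the sources used here. Without strand, reads from an antisense gene and its overlapping partner cannot be told apart.

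Levels of the noncoding RNA genes were low and uneven. The mean normalized count over the 18 libraries had a median of 64.6 against 503 for all listed genes, and 90 of the 155 were under 100. LINC00657 alone supplied 55.7% of their counts, LINC00346 8.31% and MMP24-AS1 4.29%. Their recovered reads summed to between 39870 and 123955 a library, of 4490870 to 21816350 reads over the listed genes. That sum covers listed genes only and is not the library's depth. Replicates of a group correlated at 0.885 to 0.970 over these genes on the log2 scale, and their median coefficient of variation was 38.2% with DMSO and between 18.3% and 24.3% in the other groups. Their normalized counts summed to 42800 ± 3300 (SD, n = 3) under DMSO, 55500 ± 679 with NCS, 60900 ± 6230 with MD-224, 70200 ± 2550 with NCS and MD-224, 88900 ± 280 with MI-1061 and 101000 ± 2260 with the pair of NCS and MI-1061. As a share of the listed counts without MDM2 the sum was 0.933% ± 0.0767 with DMSO, 0.932% ± 0.028 with MI-1061 alone and 0.946% ± 0.0777 with MD-224. It was 0.841% ± 0.00608 with NCS, 0.796% ± 0.0415 with NCS and MD-224, and lowest with NCS and MI-1061, at 0.689% ± 0.0219. The listed genes were selected for a high level in that last group, so its share leans on how the table was made. LINC00657 also carries most of the noncoding sum.

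**Figure D1:**
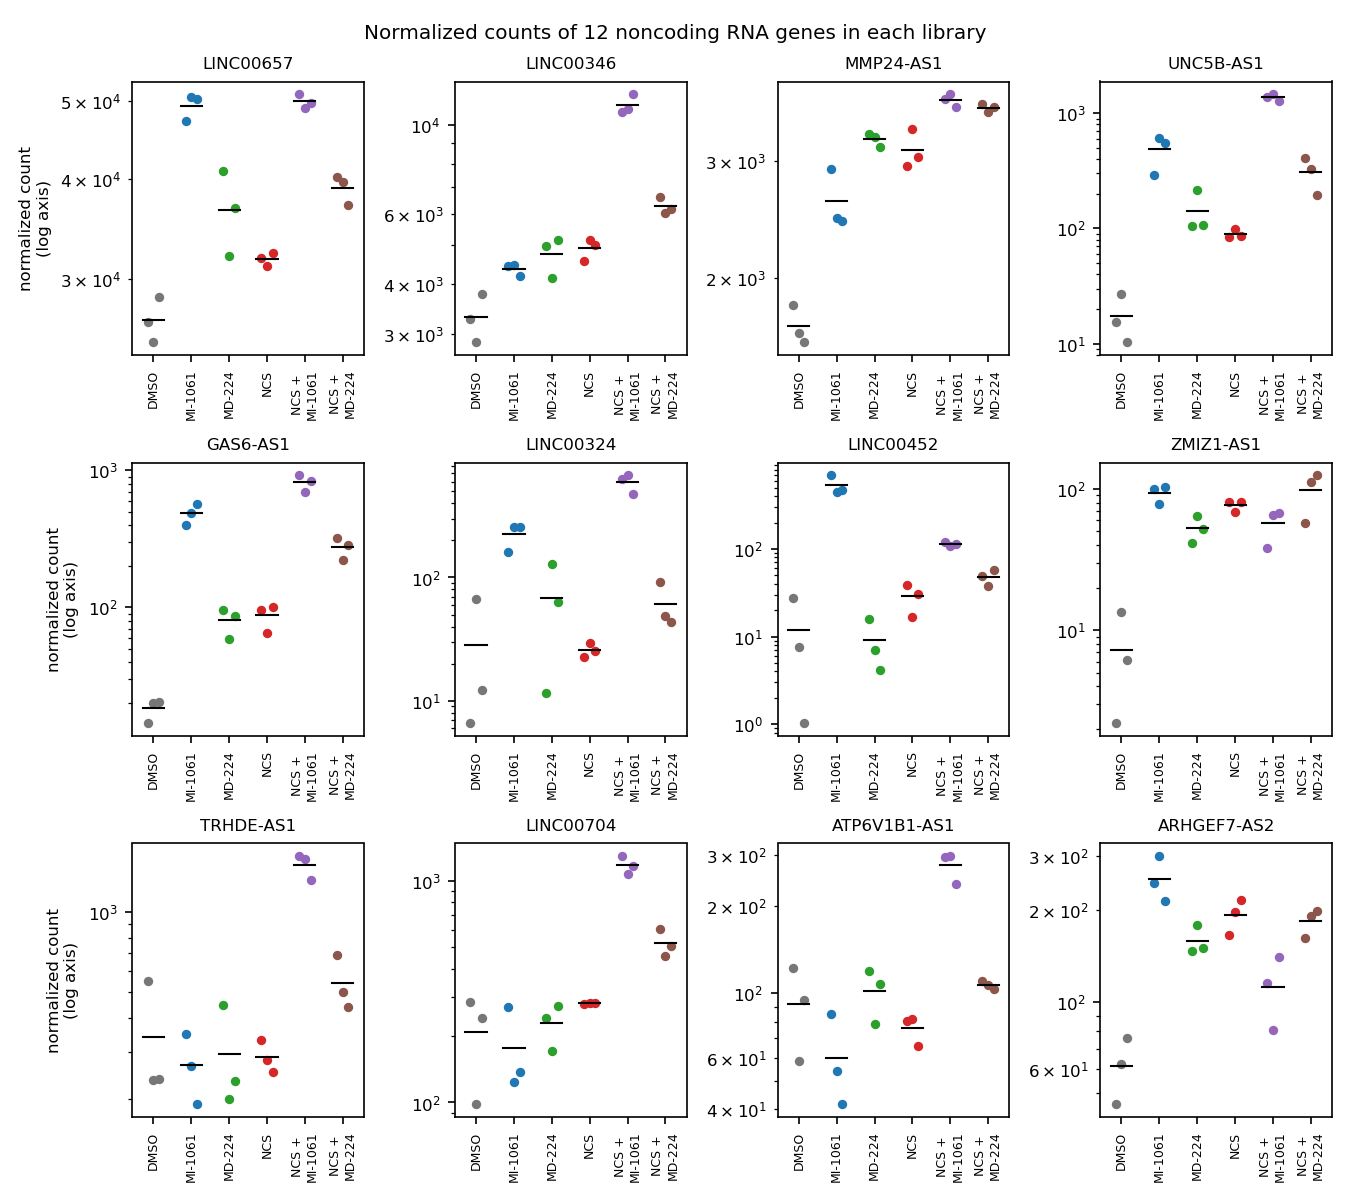
Normalized counts of 12 noncoding RNA genes in each of the 18 libraries, on log axes that differ between panels; points are libraries and bars are means of 3. UNC5B-AS1 lies between 1271 and 1474 in NCS with MI-1061 and between 10.2 and 26.9 in DMSO, and LINC00452 reaches 444 or more in the MI-1061 libraries only.

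LINC00657 (NORAD, chromosome 20: 36045618 to 36050960) had normalized counts of 26463, 24974 and 28480 with DMSO, 47191, 50532 and 50330 with MI-1061, and 51039, 49048 and 49757 when NCS came before MI-1061. With NCS alone it had 31797, 31108 and 32265, with MD-224 40858, 31990 and 36785, and with NCS and MD-224 40137, 39649 and 37085. Both MI-1061 groups thus lay above every other library, and adding NCS to MI-1061 left a log2 difference of 0.02 (95% interval -0.18 to 0.21, limma adjusted p = 0.873). Against DMSO, MI-1061 gave a log2 difference of 0.89 ± 0.09 (SE, adjusted p = 2.11e-07), which was -0.10 (adjusted p = 0.362) under TMM. NCS gave 0.25 ± 0.09 (adjusted p = 0.0289), which turned to -0.36 (adjusted p = 0.00843) under TMM. Its NCS call also ended in the fit of the compared groups alone (adjusted p = 0.0543) and without NCS replicate 1, 2 or 3 or DMSO replicate 1 or 2 (adjusted p of up to 0.104).

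Next in counts, LINC00346 (also PRECSIT), showed another order of levels. It was at 3261, 2853 and 3769 with DMSO, 4444, 4447 and 4188 with MI-1061, 4985, 4129 and 5149 with MD-224 and 4555, 5158 and 5016 with NCS. With NCS and MI-1061 it was at 10816, 10960 and 11974, above every other library, and NCS with MD-224 gave 6615, 6013 and 6147. MI-1061 and MD-224 alone did not differ beyond their spread, at a log2 difference of 0.12 (95% interval -0.12 to 0.36, adjusted p = 0.378). The response to MI-1061 was 0.78 ± 0.16 larger after NCS than without it (interaction, limma adjusted p = 0.000958). MMP24-AS1, which lies across MMP24 on the other strand, was lowest with DMSO (1820, 1652 and 1599) and lay at 2438 to 3786 in the other 15 libraries. MI-1061 raised it by 0.62 (adjusted p = 3.16e-05), which turned to -0.37 (adjusted p = 0.00683) under TMM. LINC00152 (CYTOR) had 1938, 1393 and 1705 with DMSO, 4872, 3955 and 4144 with MI-1061, 1956, 1263 and 1446 with MD-224 and 1708, 1501 and 1440 with NCS. Its MI-1061 libraries stood apart, at a log2 difference of 1.37 ± 0.16 from DMSO (adjusted p = 1.05e-06, 0.38 and adjusted p = 0.0611 under TMM). MD-224 differed from MI-1061 by -1.49 ± 0.16 for this gene (adjusted p = 9.01e-07).

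DNA breakage alone raised a part of these genes and lowered none by the test. With NCS against DMSO, 57 of 155 noncoding RNA genes rose and none fell (limma adjusted p under 0.05), while 54% of all tested genes rose and 1.3% fell. At an unadjusted p under 0.05, 74 were higher and 1 lower. Here and below, counts at an unadjusted p, under TMM, in edgeR and in other alternative fits cover the noncoding RNA genes alone. Shares of all tested genes are not given for them, so they do not show whether these genes differ from the rest. The median log2 difference was 0.67 for the noncoding RNA genes and 0.66 for all genes. TMM moved the median of all genes by -0.60 in this comparison, and the split was then 11 higher and 9 lower.

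A few RNAs rose with NCS by more than 2 on the log2 scale. UNC5B-AS1, antisense to the netrin receptor gene UNC5B at chromosome 10: 71217224 to 71218228, had 15.3, 26.9 and 10.2 with DMSO and 84.4, 99.5 and 86.7 with NCS. The difference was 2.40 ± 0.37 (adjusted p = 6.08e-05), and the groups did not overlap, which was a condition for naming a gene by the size of its change. GAS6-AS1 had 14.2, 20.2 and 20.5 with DMSO and 96.2, 65.5 and 101 with NCS, a difference of 2.19 ± 0.26 (adjusted p = 4.73e-06). ZMIZ1-AS1, which starts near the transcriptional coregulator gene ZMIZ1, had 2.19, 13.4 and 6.14 with DMSO and 80.5, 68.7 and 81.2 with NCS. Its difference of 3.49 ± 0.44 (adjusted p = 1.08e-05) was the highest of the 57. LINC01050 had 2.19, 17.3 and 1.02 with DMSO and 31.4, 18.9 and 31.5 with NCS, where the lowest NCS library lay just above the highest DMSO one. Its difference of 2.49 ± 0.73 (adjusted p = 0.00921) was 3.44 without DMSO replicate 2, and lost the call without DMSO replicate 3 (1.85, adjusted p = 0.0557) and under TMM (adjusted p = 0.0539).

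MDM2 inhibition reached more of these genes. With MI-1061 against DMSO, 116 rose and 1 fell, while 67.6% of all tested genes rose and 4.46% fell. Their median log2 difference was 1.59, and 1.00 for all genes. Under TMM, which moved the median of all genes by -0.98, 61 were higher and 22 lower, and the medians were 0.63 and 0.01. Of the LINC genes 33 of 44 rose and of the antisense genes 83 of 111. In edgeR's quasi-likelihood test on recovered reads 110 rose and none fell.

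The largest rises under MI-1061 came from low levels. LINC00452 had 27.4, 7.69 and 1.02 with DMSO and 698, 444 and 473 with MI-1061, a log2 difference of 6.06 ± 0.66 (adjusted p = 3.65e-07). Its DMSO libraries were far apart, and the difference was 6.98 without DMSO replicate 1 and 5.07 without DMSO replicate 3. UNC5B-AS1 had 293, 608 and 556 with MI-1061, a difference of 4.75 ± 0.37 (adjusted p = 5.69e-09) or 26.9-fold. GAS6-AS1 had 401, 486 and 567, a difference of 4.66 ± 0.26 (adjusted p = 1.51e-10). In each of these genes all MI-1061 libraries lay over 10 times above all DMSO libraries. LINC00431 had 4.38, 7.69 and 10.2 with DMSO and 119.6, 127 and 111 with MI-1061, a difference of 3.89 ± 0.47 (adjusted p = 1.11e-06). The gene that fell, LINC01278, had 107, 98.0 and 133 with DMSO and 83.6, 88.7 and 49.2 with MI-1061. Its difference of -0.64 ± 0.23 (adjusted p = 0.0214) lost the call without MI-1061 replicate 3 (-0.37, adjusted p = 0.142), without DMSO replicate 3 (adjusted p = 0.0877), in edgeR (adjusted p = 0.105) and in a fit of the compared groups alone (adjusted p = 0.143).

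MDM2 degradation gave fewer calls. With MD-224 against DMSO, 64 rose and 2 fell, against 39.9% and 2.8% of all tested genes, and the median log2 difference was 0.72 beside 0.48 for all genes. TMM left 19 higher and 4 lower, with the median of all genes moved by -0.49. The fit of the compared groups alone called 30 higher, edgeR 33, and the fit without MD-224 replicate 3 called 43, with none lower in any of these. UNC5B-AS1 had the largest difference here, with 106, 215 and 107 against 15.3, 26.9 and 10.2 in DMSO (2.97 ± 0.37, adjusted p = 1.15e-05). ZMIZ1-AS1 rose to 41.3, 64.4 and 52.4 (2.94 ± 0.44, adjusted p = 7.81e-05) and KCNJ2-AS1, antisense to a potassium channel gene, rose from 6.57, 8.65 and 2.05 to 29.8, 28.3 and 31.4 (2.35 ± 0.42, adjusted p = 0.000325). DNAJC27-AS1 rose from 5.47, 5.77 and 5.12 to 20.6, 48.9 and 30.4 (2.33 ± 0.55, adjusted p = 0.00309). No library of MD-224 overlapped DMSO for these genes, which was a condition for naming them. SLFNL1-AS1 fell from 75.5, 46.1 and 40.9 to 28.7, 34.8 and 16.8 (-1.0 ± 0.35, adjusted p = 0.0289), a call that ended without MD-224 replicate 3 (adjusted p = 0.14) or DMSO replicate 1 (adjusted p = 0.124), in edgeR (adjusted p = 0.0883) and in the fit of the compared groups alone (adjusted p = 0.112). The other gene that fell, LINC00705, had 24.1, 34.6 and 14.3 with DMSO and 17.2, 12.2 and 2.09 with MD-224 (-1.40 ± 0.53, adjusted p = 0.0438), where the groups overlapped and the value was -0.62 (adjusted p = 0.273) without MD-224 replicate 3.

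The 3 single treatments overlapped unevenly on these genes. Called higher with MI-1061 and with neither of the others were 47 genes (30.3%, against 22.3% of all genes), and with MI-1061 and MD-224 but not NCS 22 (14.2%, against 5.96%). Only 2 (1.29%, against 6.64%) were called with NCS alone, and 29 (18.7%, against 24.3%) with all 3. The 3 comparisons share the DMSO libraries, so these counts describe the calls and the differences between treatments were tested apart.

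**Figure D2:**
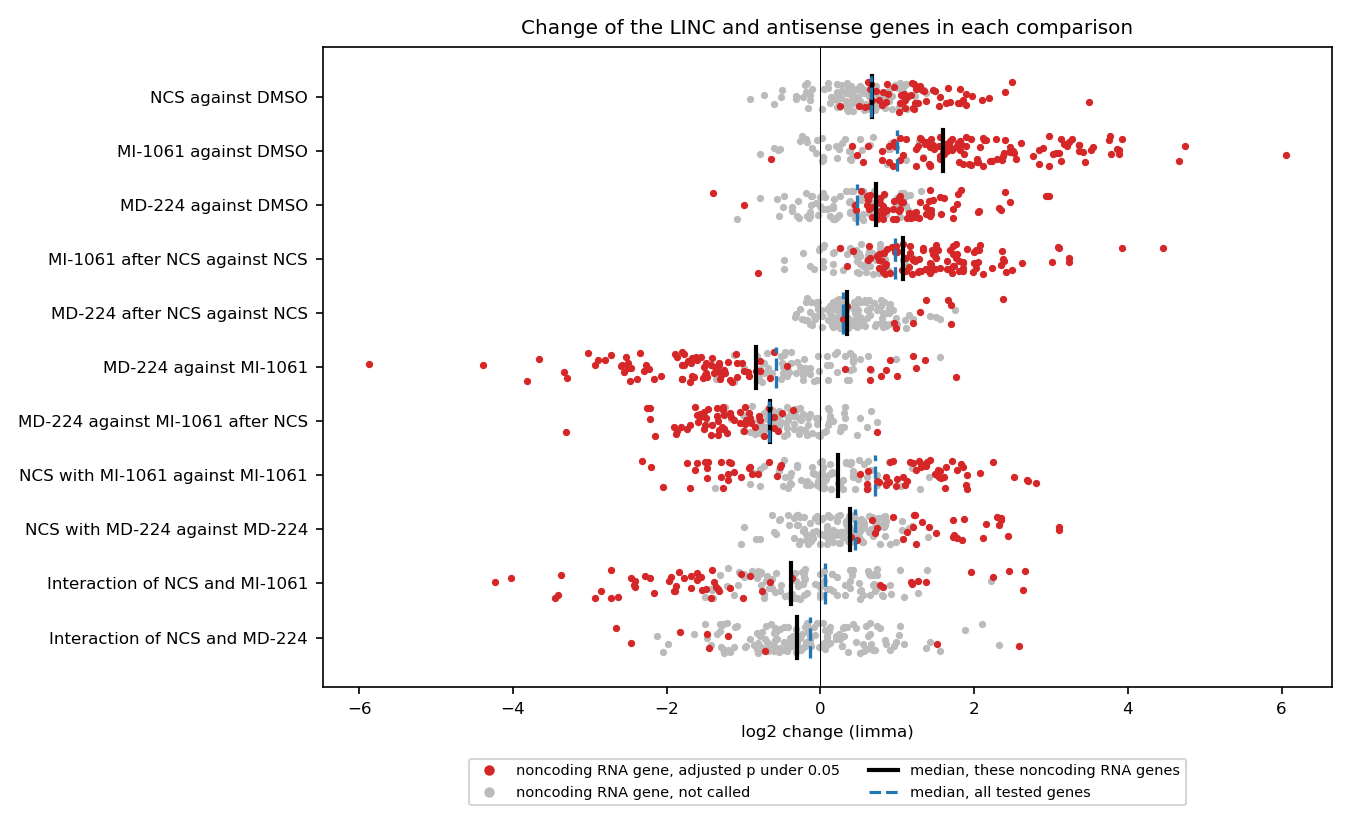
Log2 difference (limma) of the 155 noncoding RNA genes in 9 comparisons of groups and 2 interactions; each point is 1 gene, red where the adjusted p is under 0.05, the black bar is their median and the dashed line the median of all tested genes. The black bar lies right of the dashed line for MI-1061 against DMSO (1.59 and 1.00) and left of it for the interaction of NCS and MI-1061 (-0.38 and 0.06).

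Inhibitor and degrader were compared at the same dose and time, once without and once after NCS, with p-values adjusted over all tested genes in each. Without NCS, MD-224 gave lower levels than MI-1061 for 78 of the 155 and higher levels for 11, against 49.8% and 12.4% of all tested genes. In the median the log2 difference was -0.84, and -0.58 over all genes. TMM raised the median of all genes by 0.49 and gave 50 lower and 23 higher. For 66 genes no call was made, and their 95% intervals had a median width of 1.58. In 25 of those the interval stayed within a log2 difference of 1 in both directions, while in 30 it reached a fall of 1 or more, so absence of a call does not show equal response.

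LINC00452 differed most between the compounds. It had 698, 444 and 473 with MI-1061 and 16.1, 7.08 and 4.19 with MD-224, a log2 difference of -5.88 ± 0.66 (adjusted p = 1.12e-06). The MD-224 libraries lay within the range of DMSO. LINC00431 had 119.6, 127 and 111 with MI-1061 and 11.5, 3.86 and 2.09 with MD-224 (-4.39 ± 0.47, adjusted p = 6.25e-07). INHBA-AS1, antisense to the activin subunit gene INHBA, had 143, 102 and 128 with MI-1061 and 13.8, 4.51 and 10.5 with MD-224 (-3.66 ± 0.43, adjusted p = 1.92e-06). STXBP5-AS1 had 394, 271 and 279.7 with MI-1061 and 67.7, 9.02 and 40.8 with MD-224 (-3.34 ± 0.58, adjusted p = 0.000105, with -3.93 and -2.54 without MD-224 replicate 1 or 2), and its replicate 2 was the lowest library in each of the 6 groups.

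The genes higher with the degrader were few and moved less. FOXD3-AS1 had 18, 68.3 and 19.98 with MI-1061 and 87.2, 151 and 80.6 with MD-224 (1.77 ± 0.48, adjusted p = 0.00414, and 2.37 without MI-1061 replicate 2). LINC01278 had 83.6, 88.7 and 49.2 against 186, 144 and 182 (1.24 ± 0.23, adjusted p = 0.000226), and USP46-AS1 had 113, 42.0 and 53.8 against 131, 148 and 165 (1.20 ± 0.30, adjusted p = 0.0023). Each MD-224 library lay above each MI-1061 library in these, as the condition for naming them required. VPS9D1-AS1 had 32.2, 20.4 and 7.68 against 47.0, 43.1 and 48.2 (1.36 ± 0.40, adjusted p = 0.00765), and lost the call without MI-1061 replicate 3 (0.82, adjusted p = 0.057) and in edgeR (adjusted p = 0.0548).

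After NCS, MI-1061 raised 100 of the 155 and lowered 1, against 70.5% and 0.748% of all tested genes. From NCS alone the median log2 difference was 1.07, beside 0.97 over all genes, and TMM, with a shift of -0.99, left 25 higher and 14 lower. LINC00324 rose most, from 22.6, 29.2 and 25.5 to 627, 678 and 474 (4.46 ± 0.72, adjusted p = 3.19e-05). UNC5B-AS1 rose from 84.4, 99.5 and 86.7 to 1396, 1474 and 1271 (3.92 ± 0.37, adjusted p = 5.8e-08) and LINC00319 from 13.7, 26.9 and 15.2 to 184, 179.5 and 165 (3.24 ± 0.32, adjusted p = 1.02e-07). GAS6-AS1 rose from 96.2, 65.5 and 101 to 927, 698 and 837 (3.23 ± 0.26, adjusted p = 7.51e-09). In these the groups stood far apart. LINC00324 also differed among the DMSO libraries, where replicate 2 had 66.3 and the others 6.57 and 12.3.

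ARHGEF7-AS2 was the gene that fell when MI-1061 followed NCS. It had 166, 197 and 216 with NCS and 115, 80.7 and 139.9 with NCS and MI-1061, a difference of -0.81 ± 0.25 (adjusted p = 0.00772). Without NCS and MI-1061 replicate 2 this was -0.59 (adjusted p = 0.0532). Without NCS the same compound had raised it from 46.0, 62.5 and 75.7 to 244, 301 and 214 (2.04 ± 0.25, adjusted p = 1.23e-06).

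Given after NCS, MD-224 raised 11 of the 155 and lowered none, against 15.1% and 0% of all tested genes. At an unadjusted p under 0.05, 34 were higher and none lower. The median log2 difference was 0.35, and 0.30 over all genes. With the replicate number as a block, which paired these libraries, 20 rose. The fit of the compared groups alone called 21, TMM (shift of -0.32) called 3, the fit without NCS and MD-224 replicate 1 called 3, and that without NCS replicate 1 called 6. UNC5B-AS1 rose from 84.4, 99.5 and 86.7 to 406, 326 and 193 (1.70 ± 0.37, adjusted p = 0.00455) and GAS6-AS1 from 96.2, 65.5 and 101 to 323, 223 and 284 (1.66 ± 0.26, adjusted p = 0.00027). FAS-AS1, antisense to the death receptor gene FAS, rose from 5.89, 11.1 and 5.46 to 33.8, 20.02 and 24.3 (1.70 ± 0.41, adjusted p = 0.00972), and LINC00319 from 13.7, 26.9 and 15.2 to 60.1, 43.0 and 41.5 (1.37 ± 0.32, adjusted p = 0.0075). FAS-AS1 and LINC00319 lost the call without NCS and MD-224 replicate 1 (adjusted p = 0.0696 and 0.0576) and under TMM (adjusted p = 0.073 and 0.0725).

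The inhibitor also gave the higher levels after NCS, but NCS with MI-1061 is the group whose high level defines the listed genes. That direction was therefore favoured in advance. MD-224 was lower than MI-1061 for 59 of the 155 and higher for 1, against 54.7% and 0.748% of all tested genes, with a median log2 difference of -0.66 beside -0.67. TMM raised the median of all genes by 0.66, and the split was then 11 lower and 12 higher. LINC00324 differed most, with 627, 678 and 474 against 91.8, 49.0 and 43.5 (-3.31 ± 0.72, adjusted p = 0.000945). UNC5B-AS1 had 1396, 1474 and 1271 against 406, 326 and 193 (-2.22 ± 0.37, adjusted p = 7.74e-05), and JMJD1C-AS1, antisense to a histone demethylase family gene, 73.8, 35.6 and 62.6 against 10.6, 8.90 and 14.2 (-2.22 ± 0.40, adjusted p = 0.000189). LINC01604 had 134, 189 and 193 against 40.1, 46.0 and 28.4 (-2.15 ± 0.33, adjusted p = 4.07e-05). No library of one group reached the other in these genes, which was again a condition for naming them.

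The gene higher with the degrader after NCS was ARHGEF7-AS2 (161, 191 and 198 against 115, 80.7 and 139.9, a difference of 0.74 ± 0.25, adjusted p = 0.0178). That call ended without NCS and MI-1061 replicate 2 (0.52, adjusted p = 0.105) and without NCS and MD-224 replicates 2 or 3 (adjusted p = 0.0511 and 0.0595). For 95 genes no call was made, with a median interval width of 1.69, and in 30 of them the interval stayed within a log2 difference of 1. MMP24-AS1 was among these, with 3725, 3786 and 3613 under the inhibitor and 3650, 3561 and 3619 under the degrader, a difference of -0.04 (95% interval -0.25 to 0.17, adjusted p = 0.761).

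Adding NCS to MI-1061 split the noncoding RNA genes. Of the 155, 48 were higher with both agents than with MI-1061 alone and 28 were lower, against 55.9% and 10.1% of all tested genes. The median log2 difference was 0.23, and 0.71 over all genes. Under TMM, with a shift of -0.61, 21 were higher and 48 lower.

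Of the 48 genes that rose, 22 were called with neither agent alone against DMSO (14.2% of the 155, against 12.4% of all tested genes). The 4 with the largest rises were among these 22. Since listed genes were selected for a higher level with both agents than with DMSO, this pattern was favoured in advance. The same holds for libraries with both agents lying above those of the other groups. LINC00704 (MANCR, a mitosis-associated RNA at chromosome 10: 4650185 to 4678070, whose promoter is printed above) had 284, 98.0 and 241 with DMSO, 269, 124 and 137 with MI-1061, 277, 281 and 281 with NCS and 1292, 1070 and 1160 with both. The log2 difference between both agents and MI-1061 was 2.81 ± 0.34 (adjusted p = 1.4e-06), while NCS and MI-1061 alone differed from DMSO by 0.56 (95% interval -0.14 to 1.27) and -0.19 (-0.90 to 0.52). TRHDE-AS1 had 554, 234 and 236 with DMSO, 349.8, 265 and 191 with MI-1061, 331, 279 and 251 with NCS and 1623, 1574 and 1317 with both (2.52 ± 0.34, adjusted p = 4.77e-06). LINC00705 had 24.1, 34.6 and 14.3 with DMSO, 18, 9.59 and 12.3 with MI-1061, 40.2, 16.6 and 20.01 with NCS and 96.4, 87.8 and 82.6 with both (2.69 ± 0.53, adjusted p = 0.000288). In these 3, every library with both agents lay above every library of the other 5 groups. FOXD3-AS1 rose from 18, 68.3 and 19.98 to 156, 244 and 197 (2.70 ± 0.48, adjusted p = 9.76e-05, and 3.30 without MI-1061 replicate 2).

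The genes named among the 28 that fell had been raised by MI-1061 alone (limma). That direction was fixed by how the table was made. A listed gene with a lower mean under both agents than under MI-1061 must have an MI-1061 mean above its DMSO mean. LINC00452 went from 698, 444 and 473 with MI-1061 to 119, 109 and 113 with both agents (-2.20 ± 0.66, adjusted p = 0.00732). OSMR-AS1, from the locus of the oncostatin M receptor, went from 78.5, 83.9 and 75.3 to 26.2, 13.4 and 17.3 (-2.05 ± 0.54, adjusted p = 0.00315). ATE1-AS1 went from 122, 158 and 151 to 52.4, 52.2 and 28 (-1.73 ± 0.35, adjusted p = 0.000328), and TOB1-AS1, antisense to an antiproliferative gene, from 51.5, 103 and 138 to 29.8, 29.3 and 22.7 (-1.70 ± 0.43, adjusted p = 0.00207). The groups did not overlap in any of these, which was a condition for naming them.

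NCS before MD-224 raised 30 of the 155 and lowered none, against 39% and 0.586% of all tested genes. At an unadjusted p under 0.05, 40 were higher and 1 lower. The median log2 difference was 0.39 beside 0.45, and TMM (shift of -0.44) gave 14 higher and 6 lower. STXBP5-AS1 rose from 67.7, 9.02 and 40.8 to 396, 148 and 309.8 (3.11 ± 0.58, adjusted p = 0.000576, and 2.30 without MD-224 replicate 2), LINC00452 from 16.1, 7.08 and 4.19 to 49.6, 37.8 and 57.7 (2.44 ± 0.66, adjusted p = 0.00757) and LINC00643 from 9.18, 2.58 and 18.9 to 48.5, 37.8 and 48.6 (2.35 ± 0.61, adjusted p = 0.00582, and 1.68 without MD-224 replicate 2). These groups did not overlap, as the condition for naming genes required. LINC01050 had 2.29, 11.6 and 6.28 against 17.9, 31.9 and 63.8 (2.35 ± 0.73, adjusted p = 0.0173), and lost the call without MD-224 replicate 1 (adjusted p = 0.0794), without NCS and MD-224 replicate 3 (adjusted p = 0.0771) and under TMM (adjusted p = 0.0849).

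The interaction asks whether the response to a compound differed after NCS. For MI-1061 it was negative for 44 of the 155 and positive for 11, against 20.8% and 23.5% of all tested genes, and its median was -0.38 beside 0.06. TMM changed little here, with 42 negative and 11 positive and a shift of -0.01. Negative calls were made for 35 of the 111 antisense genes and 9 of the 44 LINC genes. ZMIZ1-AS1 had the most negative value, -4.23 ± 0.63 (adjusted p = 5.79e-05): MI-1061 took it from 2.19, 13.4 and 6.14 to 100.3, 78.0 and 103 without NCS, and after NCS from 80.5, 68.7 and 81.2 to 38.1, 64.8 and 68.0. LINC00452 followed at -4.03 ± 0.93 (adjusted p = 0.00231, with -4.95 and -3.04 without DMSO replicate 1 or 3) and ZNF295-AS1 at -3.45 ± 0.59 (adjusted p = 0.000211), with 30.9, 103 and 55.3 under MI-1061 and 20.2, 19.8 and 18.7 under both. TRHDE-AS1 (2.66 ± 0.48, adjusted p = 0.000294), LINC00705 (2.64 ± 0.76, adjusted p = 0.00935) and ATP6V1B1-AS1 (2.45 ± 0.42, adjusted p = 0.000194) had the highest positive values. ATP6V1B1-AS1 had 84.9, 54.0 and 41.5 with MI-1061, 80.5, 81.3 and 66.1 with NCS and 294, 297 and 237 with both, and 78.8% of its exon bases are shared with other genes.

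For MD-224 the interaction was negative for 7 and positive for 2 (LINC00319 and SOX21-AS1), against 7.19% and 4.07% of all tested genes, with a median of -0.31 beside -0.14. At an unadjusted p under 0.05, 23 were negative and 9 positive. The count fell to 5 without NCS and MD-224 replicate 1 or without NCS replicate 3, and rose to 14 without MD-224 replicate 1 and to 15 without DMSO replicate 2. ZMIZ1-AS1 had -2.66 ± 0.63 (adjusted p = 0.013), with 57.0, 111 and 126 under NCS and MD-224 and 41.3, 64.4 and 52.4 under MD-224. KCNJ2-AS1 had -2.47 ± 0.59 (adjusted p = 0.0139), with 19.6, 25.3 and 20.01 under NCS and 16.9, 17.1 and 26.3 after MD-224 was added. MAN1B1-AS1 (-1.83 ± 0.50, adjusted p = 0.029, and 0.0503 under TMM) and LINC00319 (1.52 ± 0.45, adjusted p = 0.0394) lost the call in a fit of the compared groups alone (adjusted p = 0.0669 and 0.094) and on leaving out any of several libraries, with adjusted p of up to 0.0785 and 0.098. SOX21-AS1, with values of 1.05 to 42.3 over all libraries, had 2.58 ± 0.80 (adjusted p = 0.0459).

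Each gene was also assigned to the group with its highest mean. DMSO was highest for none of the 155 and for 0% of all listed genes, which the way the table was made fixes. NCS with MI-1061 was highest for 79 (51%, against 68.2% of all listed genes), MI-1061 alone for 57 (36.8%, against 22.8%), NCS with MD-224 for 14 (9.03%, against 5.99%), MD-224 for 4 (2.58%, against 1.01%) and NCS for 1 (0.645%, against 1.92%). Among the other listed genes the low ones were more often highest with MI-1061 alone, so the shares were also taken on either side of a mean of 100, a limit chosen after the values were seen. Under 100, 36.7% of the noncoding RNA genes and 40.1% of the other listed genes were highest with MI-1061. At 100 or more the shares were 36.9% of 65 and 16.1% of 2190. The interaction of NCS and MI-1061 was negative for 24.4% and 35.3% below that level, and for 33.8% and 15.4% above it. In bulk libraries fewer cells of a kind and less RNA per cell cannot be told apart.

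**Figure D3:**
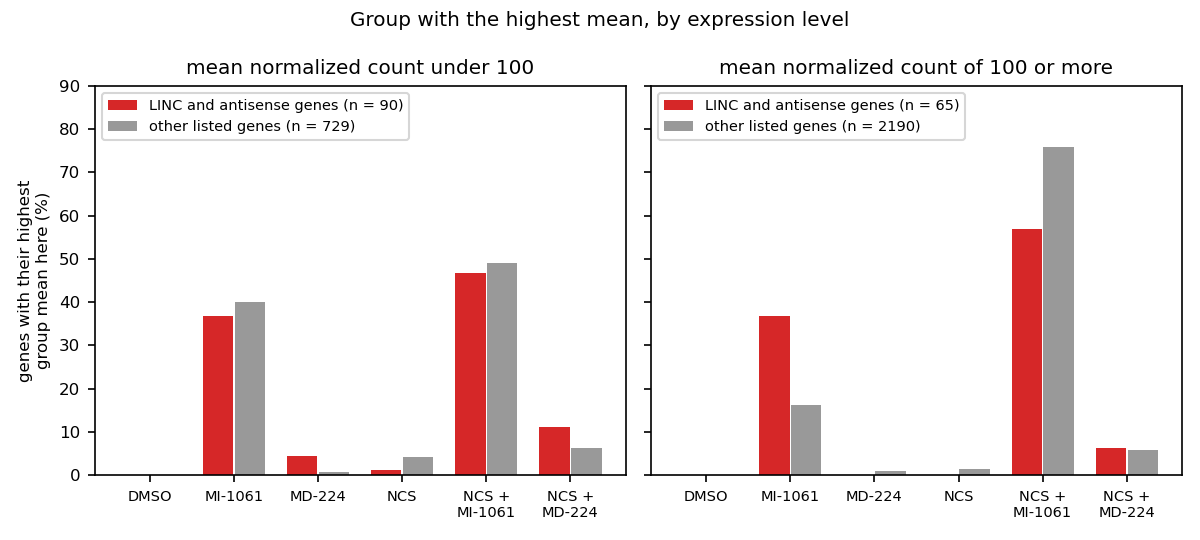
Share of genes, in percent, whose highest group mean falls in each of the 6 groups, for noncoding RNA genes (red) and other listed genes (grey), at a mean normalized count under 100 (left) and of 100 or more (right). For MI-1061 the bars are close on the left (36.7% and 40.1%) and apart on the right (36.9% and 16.1%).

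For 34 antisense genes the sense gene was listed too, so both could be followed. The 34 pairs hold 33 sense genes, since TSPEAR is paired with both TSPEAR-AS1 and TSPEAR-AS2 and counts in each. With MI-1061 against DMSO antisense genes rose in 26 pairs and sense genes in 25 (24 distinct sense genes), with both in 20, where 67.6% of all tested genes rose. The median log2 difference was 1.64 for antisense and 0.90 for sense genes. Over the 34 pairs the log2 differences had a Pearson correlation of 0.50 and a Spearman correlation of 0.44, across genes of the same libraries and with reads that pairs may share. With MD-224 against MI-1061 antisense genes fell in 18 pairs and sense genes in 19 (18 distinct), with both in 16, where 49.8% of all tested genes fell. These shares lie near those over all genes. Among the 34, pairs called in opposite directions occurred once in that comparison (IL10RB-AS1) and once with NCS and MI-1061 against MI-1061 (HM13-AS1), both named after their values were seen.

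UNC5B-AS1 and UNC5B rose together under MI-1061. UNC5B had 350.2, 473.8 and 212.8 with DMSO and 2430, 4920 and 3148 with MI-1061 (3.35, adjusted p = 9.58e-08), and its antisense gene shares no exon bases with it. With NCS alone UNC5B was at 624, 468 and 536.5 (0.71, adjusted p = 0.0718) where UNC5B-AS1 rose by 2.40. The difference between those responses was not tested. FAS rose from 994.7, 954.3 and 882.9 to 7748, 9649 and 10521 (3.29, adjusted p = 9.51e-12) and FAS-AS1 from 6.57, 6.73 and 6.14 to 37.3, 37.2 and 64.5 (2.61, adjusted p = 2.2e-05). JHDM1D-AS1 (now KDM7A-DT), which starts 149 bases from the histone demethylase gene KDM7A on the other strand, rose from 30.6, 73.0 and 22.5 to 242, 624 and 329 (3.28, adjusted p = 3.8e-07), beside 1.48 for KDM7A (adjusted p = 6.85e-05).

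Of the pairs with interactions, KCNJ2-AS1 fell from 74.6, 115 and 76.8 with MI-1061 to 52.4, 22.9 and 24.0 with both agents (-1.47, adjusted p = 0.00516). KCNJ2 had 257.2, 253.0 and 316.6 with MI-1061 and 368.9, 329.0 and 357.2 with both (0.36, adjusted p = 0.122). The interaction of NCS and MI-1061 was -3.37 for the antisense and -1.09 for the sense gene (adjusted p = 0.000257 and 0.00465), and 7.6% of the antisense exon bases lie in other genes. IL10RB-AS1 (now IL10RB-DT) had 108, 145 and 143 with MI-1061 and 41.3, 29 and 49.2 with MD-224 (-1.72, adjusted p = 0.00395). IL10RB, a cytokine receptor subunit gene, went the other way, from 1774, 2028 and 2070 to 2438, 2907 and 2674 (0.45, adjusted p = 0.00284). Other genes share 80.9% of the exon bases of IL10RB-AS1, and IL10RB is not among the coding genes that lie across it.

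Antisense genes with high counts and a listed sense gene also included FLG-AS1, DOCK9-AS2 and ZNF674-AS1. FLG-AS1, antisense to the skin barrier gene filaggrin, had 410.4, 396.9 and 465.5 with DMSO, 739.6, 919.8 and 819.2 with MI-1061, 344.4, 375.9 and 389.2 with NCS and 1742, 1001 and 1161 with NCS and MI-1061. MI-1061 raised it by 0.96 (adjusted p = 0.000291), which turned to -0.03 (adjusted p = 0.877) under TMM, and FLG by 0.48 (adjusted p = 0.0146). DOCK9-AS2 (DOCK9-DT) had 144.4, 63.4 and 153.5 with DMSO and 373, 456.9 and 410.4 with MI-1061 (1.87, adjusted p = 1.15e-05), beside 0.71 for DOCK9 (adjusted p = 0.00258). ZNF674-AS1, next to a zinc finger gene, had 206.8, 99.95 and 152.4 with DMSO, 711.3, 473.7 and 530.3 with MI-1061 and 158.3, 155.8 and 168.6 with MD-224. Its MI-1061 libraries lay above those of every other group, and MD-224 differed from MI-1061 by -1.80 (adjusted p = 7.25e-06), beside -0.60 for ZNF674 (adjusted p = 0.0396).

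**Figure D4:**
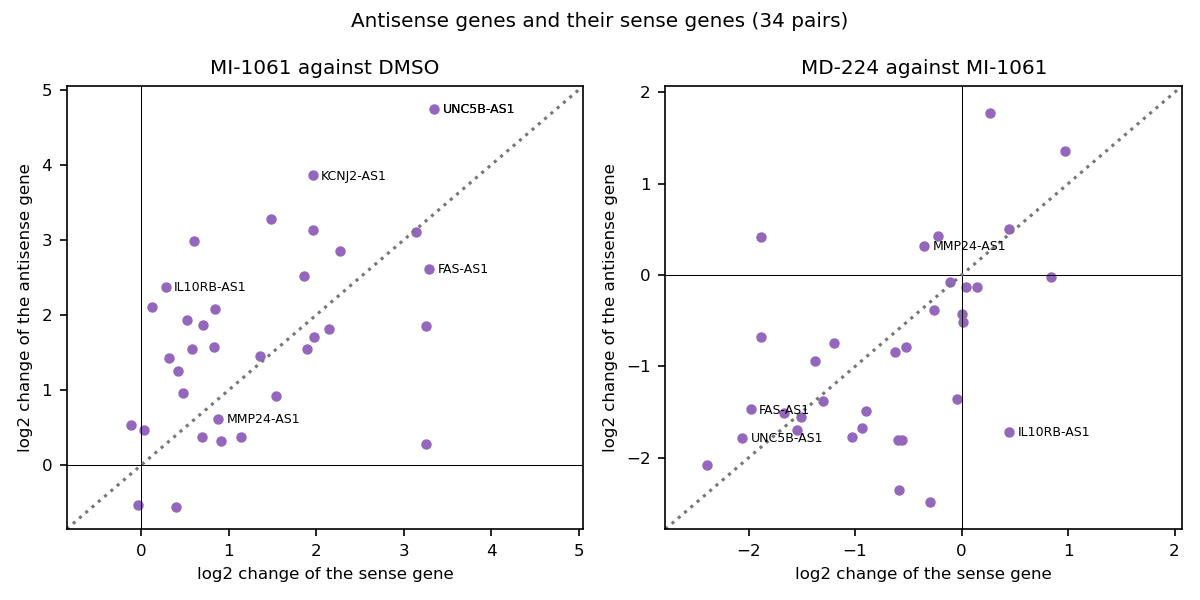
Log2 difference of the sense gene (x axis) and its antisense gene (y axis) for 34 pairs, with MI-1061 against DMSO (left) and MD-224 against MI-1061 (right); the dotted line marks equal change. Most points lie in the upper right quadrant on the left, and IL10RB-AS1 lies in the lower right quadrant on the right.

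Several of the genes lie next to one another. Within 500 kb of another noncoding RNA gene of the set lay members of 14 stretches. The one with the most members was at the end of the long arm of chromosome 13, from 113815610 to 113928991 (RefSeq, GRCh38.p14), and held GAS6-AS1, GAS6-AS2, LINC00452 and LINC00565 around GAS6, which is itself not among the listed genes. With MI-1061, which raised 116 of the 155 and 67.6% of all tested genes, all 4 rose, by 4.66, 1.59, 6.06 and 3.76 (adjusted p between 1.51e-10 and 0.00191). GAS6-AS2 was the smallest of them, with 54.7, 28.8 and 70.6 against 180.1, 119.9 and 146, and lost the call under TMM (0.61, adjusted p = 0.213). LINC00565 had 48.1, 11.5 and 37.9 with DMSO, 519.6, 308 and 370.4 with MI-1061 and 204, 130.5 and 107 with both agents. It and LINC00452 were lower with both agents than with MI-1061 alone (-1.46 and -2.20), while GAS6-AS1 was at 927, 698 and 837 against 401, 486 and 567 (0.76, adjusted p = 0.0144). That call ended under TMM (0.15, adjusted p = 0.646), without MI-1061 replicate 1 (adjusted p = 0.0626) and without NCS and MI-1061 replicate 1 (adjusted p = 0.0586).

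Another stretch of chromosome 13, from 110863987 to 111115678, held LINC00346, LINC00431 and ARHGEF7-AS2. These 3 had different patterns, as LINC00346 was highest with both agents, and LINC00431 and ARHGEF7-AS2 with MI-1061 alone. On chromosome 10 LINC00704 and LINC00705 overlap on opposite strands and share 219 exon bases. Both were highest with NCS and MI-1061 and both were higher with NCS and MD-224 than with MD-224 alone (1.22 and 2.15, adjusted p = 0.00858 and 0.00457), where LINC00704 lost the call under TMM (0.77, adjusted p = 0.12). Shared reads between this pair were not tested.

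**Figure D5:**
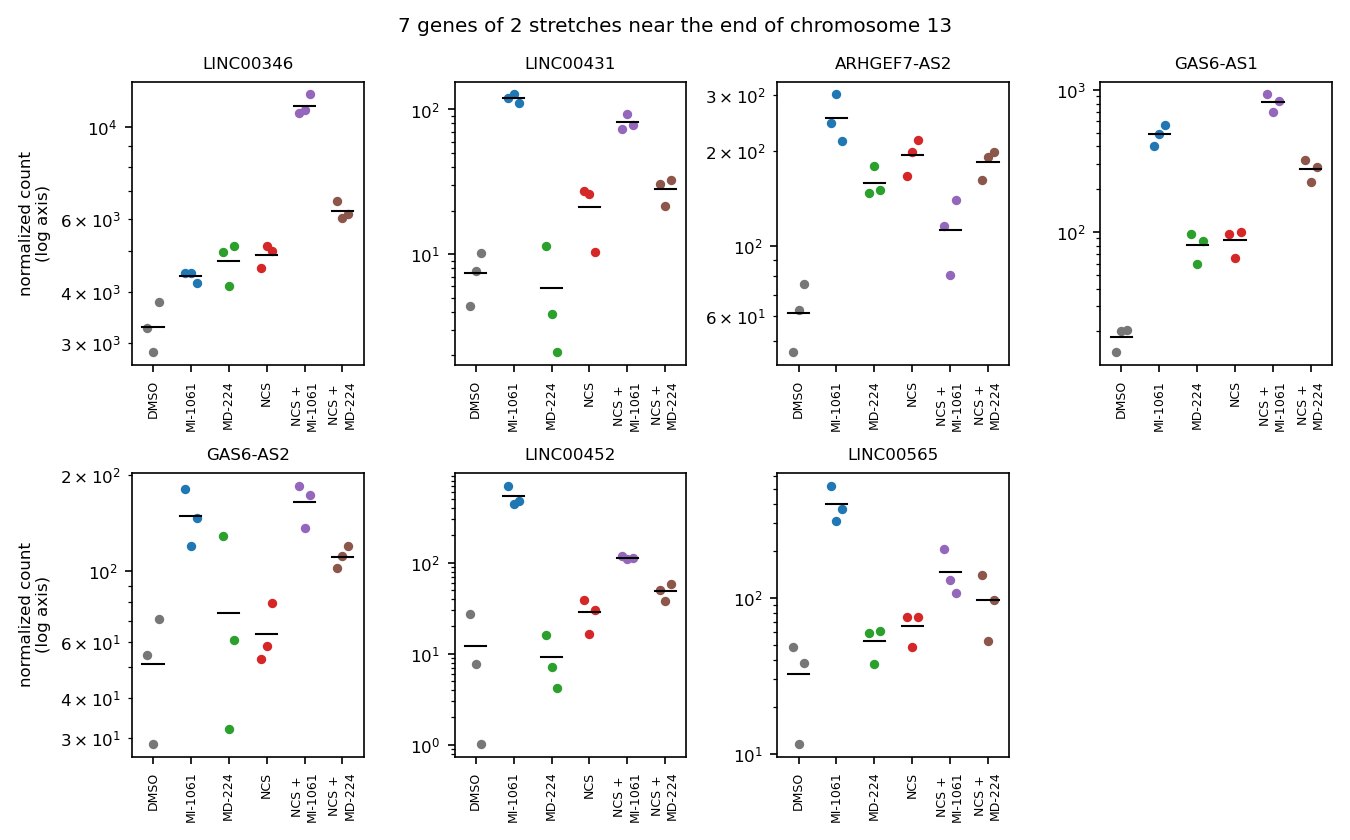
Normalized counts of 7 noncoding RNA genes from 2 separate stretches near the end of chromosome 13 in each library, on log axes that differ between panels; bars are means of 3. LINC00452 and LINC00565 peak with MI-1061 alone, while GAS6-AS1 and LINC00346 peak with NCS and MI-1061.

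Other genes give a measure for these changes. Of 50 noncoding RNA genes with other kinds of names 9 were listed, and all 9 rose with MI-1061 and 5 with NCS, where 67.6% and 54% of all tested genes rose. NEAT1, the RNA that builds paraspeckles, had 6862, 6753 and 6858 with DMSO, 19140, 16520 and 15150 with MI-1061 and 38869, 30717 and 37108 with both agents. Of 35 p53 target genes 34 were listed, and 33 rose with MI-1061, 28 with MD-224 (where 1 fell) and 23 with NCS, with medians of 2.47, 1.23 and 0.61. Of all tested genes 67.6%, 39.9% and 54% rose in the same order, with medians of 1.00, 0.48 and 0.66. After NCS, 32 of the 34 p53 targets rose with MD-224, where 11 of the 155 noncoding RNA genes and 15.1% of all tested genes did. All 34 had a mean normalized count of 100 or more, and at that level 7 of 65 noncoding RNA genes (10.8%) and 20.1% of the other listed genes rose. Of the marker lists, 2 of 9 osteoblast genes, 3 of 7 haematopoietic genes, 1 of 3 endothelial and 0 of 5 epithelial genes were among the listed genes, too few to check the labelled cell type. Of these, 1 osteoblast gene, 2 haematopoietic genes and the endothelial one rose with MI-1061, and both osteoblast and all 3 haematopoietic genes rose with NCS. The shares of all tested genes were 67.6% and 54% here too. Their part in the results was not tested.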

How the data were processed

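RNA-seq libraries (18 in all) of poly(A)-enriched RNA fell into 6 groups of 3. The deposited signal is a normalized count: by its values, the reads of a gene over 1 size factor for each library. The submitters' processing notes name GRCh38, DESeq2 2.11.40.6, featureCounts 1.6.3 and HISAT2 2.0.5.2, without the role of each. The strand setting is not given in the sources used here.

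Values of log2(normalized count + 1) were fitted with limma 3.58.1 (trend) in R 4.3.3, with all 18 libraries in 1 fit, for genes with a value of at least 10 in at least 3 libraries (3073 of 3074 genes, all 155 members). This fit shares 1 estimate of the spread over the 6 groups. The DMSO libraries varied more than that, with a median coefficient of variation of 38.2% against 18.3% to 24.3% in the other groups, so tests against DMSO partly borrow a smaller spread. Fold changes are on the log2 scale with 1 added, which understates low genes. P-values were Benjamini-Hochberg adjusted over all tested genes and called under 0.05. Values of up to 2000 reads were whole multiples of the value of 1 read (100% within 0.01 reads), with size factors of 0.651 to 1.65. edgeR 4.0.16 was run as an alternative on the recovered reads of the 9 libraries without NCS alone, since in 5 libraries with NCS the lowest listed value was above 1 read. Other alternatives were a pseudocount of 5, no filter, a mean of at least 50, TMM, the compared groups alone, a replicate block and leaving out each library.

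Same-numbered replicates deviated together (every correlation over 0.1) in 7 of the 9 comparisons of groups, with a lowest value of 0.102, and not in NCS against DMSO (lowest 0.0627), NCS with MI-1061 against MI-1061 (0.0197) or the interactions. No replicate pair agreed within sampling noise. Named genes were the 4 largest rises and falls per comparison among called genes with a mean of at least 20 and no overlap, the 3 largest per interaction in each direction, the 6 most abundant antisense genes with a listed sense gene, the 3 most abundant members and 5 genes always considered, of which LINC00152 was listed. LBX2-AS1, LINC00667 and the other genes of the chromosome 13 stretches were named by sequence or position. The members and lists were chosen with earlier results of these data known. Promoters and gene positions are from RefSeq (GRCh38.p14), transcripts from GENCODE 29. The treatment protocol writes the inhibitor with other digits than the titles, and the titles were followed.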

Additional observations from a re-analysis of the deposited data

Results flagged for a closer look

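For 6 genes the response to MI-1061 differed after NCS by a test of the interaction (limma, 12 libraries compared). It was smaller after NCS for ZMIZ1-AS1 (-4.23 on the log2 scale), LINC00452 (-4.03, with -4.95 and -3.04 without DMSO replicate 1 or 3) and ZNF295-AS1 (-3.45), and larger for TRHDE-AS1 (2.66), LINC00705 (2.64) and ATP6V1B1-AS1 (2.45). For 4 genes the response to MD-224 differed after NCS. It was smaller for ZMIZ1-AS1 (-2.66), KCNJ2-AS1 (-2.47) and MAN1B1-AS1 (-1.83) and larger for LINC00319 (1.52). MAN1B1-AS1 and LINC00319 lost the call on leaving out single libraries (limma adjusted p of up to 0.0785 and 0.098). Both also lost it in a fit of the compared groups alone. Each interaction flagged here was among the 3 largest in its direction with an adjusted p under 0.05 and a mean normalized count of at least 20. No explanation was tested.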

How the results depend on the processing

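Counts of called noncoding RNA genes, higher and lower together, depended on scaling and on the level of expression tested. TMM was computed on the listed genes alone, which were selected for a rise, so loss of shared rises under it was built in. Counts and values under TMM describe changes relative to the listed genes. With TMM the count was 20 for NCS against DMSO, 23 for MD-224 against DMSO, 39 and 3 for MI-1061 and MD-224 after NCS, and 23 for MD-224 against MI-1061 after NCS. Limited to a mean of at least 50, which tests fewer genes, it was 68 for MI-1061 against DMSO, 42 for MD-224 against DMSO, 65 for MI-1061 after NCS, 56 and 39 for MD-224 against MI-1061 without and after NCS, 49 and 18 for NCS added to MI-1061 and to MD-224, and 35 for the interaction with MI-1061. Fitting the compared groups alone gave 30 for MD-224 against DMSO and 21 for MD-224 after NCS, and edgeR gave 33 for MD-224 against DMSO. The replicate block gave 20 for MD-224 after NCS, where the numbers paired the libraries, and 20 for the interaction with MD-224, where they did not; it changed no other count by over 1.5 times. The causes were not tested.

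Leaving out each library in turn gave 42 to 56 for NCS against DMSO, 111 to 115 for MI-1061 and 43 to 60 for MD-224 against DMSO, 84 to 93 and 3 to 11 for MI-1061 and MD-224 after NCS, 76 to 82 and 44 to 52 for MD-224 against MI-1061 without and after NCS, 61 to 68 and 21 to 28 for NCS added to MI-1061 and to MD-224, and 43 to 52 and 5 to 15 for the interactions with MI-1061 and MD-224. Of 58 results that the size rules chose for single genes, 5 lost their call under TMM, 4 in the compared groups alone and 3 of 18 in edgeR, and none of these turned in direction. Among other named genes, TMM turned LINC00657 to -0.36 with NCS and to -0.10 with MI-1061, MMP24-AS1 to -0.37, LINC00667 to -0.43 and FLG-AS1 to -0.03 with MI-1061. Low counts limit most of these genes, since 90 had a mean under 100.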
